A study of Mus musculus with 6 samples.

Results

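Chromosome 10 is described here through every H3K27me3 call placed on it in 4 ChIP-seq libraries of mouse spermatogenic cells. It held 67256 of the 1154347 calls of the series, made up of 60022 of 1015756 enriched bins from the caller hiddenDomains and 7234 of 138591 peaks from the caller MACS2. The chromosome was chosen because its calls covered less of the genome in the mutants than in the controls. Every contrast of mutant and control coverage below is therefore a description, given without a p-value. The question was where along the chromosome mutant coverage lay below both controls, and where it did not.

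H3K27me3, trimethylation of lysine 27 of histone H3, is the repressive mark written by Polycomb repressive complex 2 (PRC2). Its catalytic subunit is EZH2 or the paralog EZH1, and the mark covers silent developmental genes in broad domains. In male germ cells it lies on the promoters of many genes that are kept silent through meiosis. When EZH2 is lost, EZH1 can still form a PRC2 with methyltransferase activity.

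Controls were MvhCre;Ezh2fl/+ (2 libraries) and mutants were MvhCre;Ezh2fl/fl (2 libraries). All were taken from mice aged 6 weeks of a mixed background, and both genotypes carried the Cre, driven by the germ cell gene Mvh, and at least 1 floxed Ezh2 allele. Controls thus keep a wild-type allele that deletion leaves untouched, and the extent of deletion was not measured in these files. The isolated cells, not sorted by stage in the labels, were stated to be 90% spermatogenic after they were freed of somatic cells with Percoll and cell strainers. No gene or level in the files allows a check of that purity. The labels do not state whether libraries of 1 genotype are from different animals, and the spread between them may therefore be technical.

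The lists hold positions (mm9 build, counted from 1) and no signal height, so coverage means the length of DNA lying inside a call. Calls of a library that touch were joined. Libraries differed in how much was called on the 19 autosomes. The hiddenDomains bins covered 53.3 and 54.1 Mb in controls 1 and 2, and 50.7 and 44.5 Mb in mutants 1 and 2. The MACS2 peaks covered 67.2, 69.7, 81.7 and 64.2 Mb in the same order. Mutant 1 thus had the longest MACS2 coverage, and mutant 2 the shortest coverage with both callers. Chromosome 10 is therefore given both in base pairs and as its share of each library's autosomal coverage. The read depth behind the lists is unknown. Where both genotypes have a call, the level of the mark may differ all the same. No gene is named, because no mm9 annotation was used here, and no sequence is shown for the same reason.

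Both mutants had less of chromosome 10 covered than both controls, with both callers and on both scales. With hiddenDomains the covered length was 3.31 and 3.32 Mb in the controls, compared with 2.83 and 2.54 Mb in the mutants. The means were 3.32 ± 0.00467 Mb (SD, n = 2) and 2.68 ± 0.199 Mb (SD, n = 2), a difference of -19.1%. Both mutants also lay below both controls on 17 of the 19 autosomes with this caller, and the median difference of the other 18 was -11.8%. The chromosome's share of autosomal coverage is scaled to the length called in total, which removes only a difference in that total. It was 6.22 and 6.13% in the controls, compared with 5.58 and 5.71% in the mutants, or 6.18 ± 0.0615% against 5.64 ± 0.0979% (SD, n = 2 each), a relative difference of -8.62%. Chromosome 13 came next at -6.45%, and the highest autosome was chromosome 4 at 9.21%. In share, both mutants lay below both controls on 7 of the 19 autosomes with this caller, chromosome 10 among them.

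With MACS2, chromosome 10 was the only 1 of the 19 autosomes on which both mutants were covered over a shorter length than both controls. The lengths were 3.88 and 4.01 Mb in the controls, compared with 3.78 and 3.23 Mb in the mutants. The means were 3.94 ± 0.0905 Mb and 3.51 ± 0.384 Mb (SD, n = 2 each), a difference of -11.0%. The median of the other 18 autosomes was 6.92%. This difference was unequal between the mutants, being -17.9% without mutant 1 and -4.16% without mutant 2. As a share of autosomal coverage the values were 5.77 and 5.75% in the controls, compared with 4.62 and 5.04% in the mutants. The means were 5.76 ± 0.0183% and 4.83 ± 0.293% (SD, n = 2 each), a relative difference of -16.2%, with chromosome 13 next at -9.94% and chromosome 4 highest at 13.5%. In share, both mutants lay below both controls on 8 of the 19 autosomes with MACS2, chromosome 10 among them. On the share scale chromosome 10 had the lowest value of the 19 autosomes with each caller, and it kept that place with each of the 4 libraries left out in turn. Its relative difference in share then ranged from -9.75 to -7.50% with hiddenDomains and from -19.8 to -12.6% with MACS2. Differences in total coverage between the libraries move with the values in base pairs. Their part in them was not tested.

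**Figure D1:**
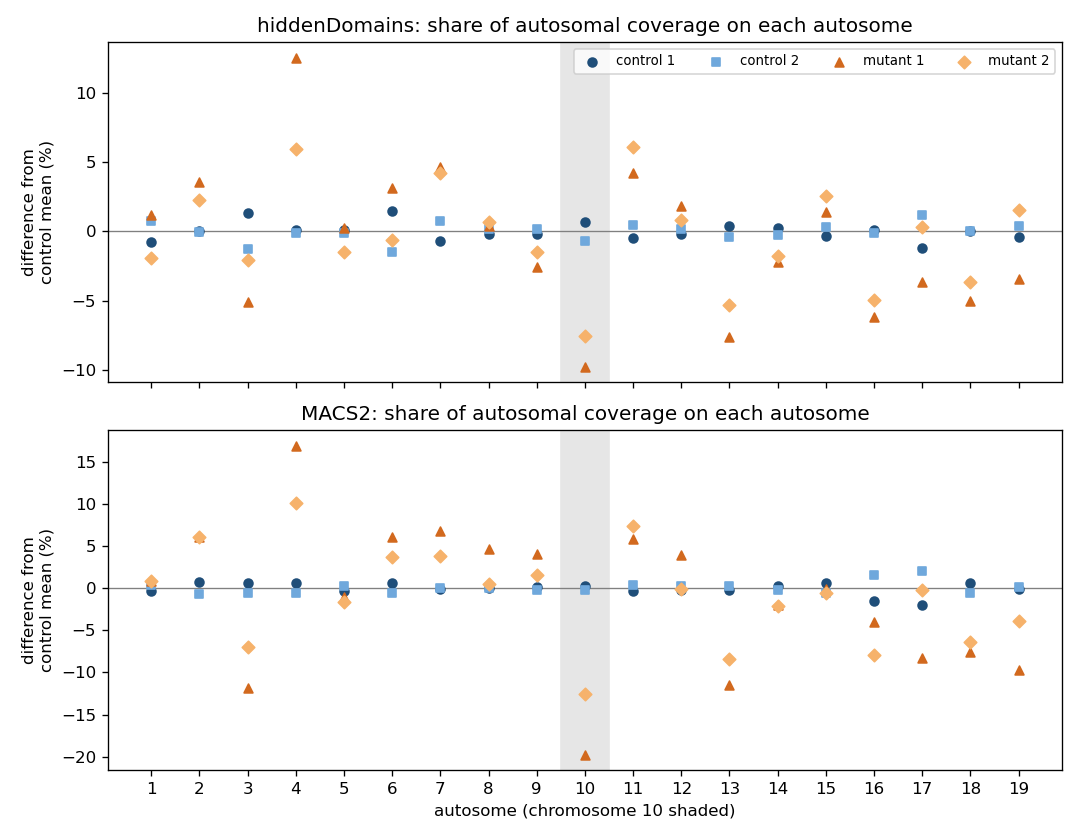
Share of each library's autosomal coverage that lies on each autosome, drawn as the difference in percent from the mean of the 2 controls, for hiddenDomains (top) and MACS2 (bottom); each symbol is 1 library and chromosome 10 is shaded. Both mutants sit lowest on chromosome 10, with mean differences of -8.62% and -16.2%, and the mutant mean is highest on chromosome 4.

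With hiddenDomains both mutants had fewer domains on chromosome 10 than both controls, a pattern found on 4 of the 19 autosomes. Merged domains on chromosome 10 numbered 1687 and 1636 in the controls, compared with 1532 and 1274 in the mutants, a difference of -15.6%. Their mean width was 1965 and 2030 bp in the controls, compared with 1844 and 1997 bp in the mutants, a difference of -3.85% with overlapping genotypes. Without mutant 2 the differences were -7.79% in number and -7.66% in mean width. A mean width does not show how far a given domain narrowed, since it also moves when narrow domains are lost. On the other 18 autosomes the median difference in mean width was -7.27%, so width differed less on chromosome 10 than on most autosomes. With MACS2 the number of peaks overlapped between genotypes, at 1883 and 1816 against 1933 and 1602. The difference of -4.43% became 4.51% without mutant 2 and -13.4% without mutant 1. Mean peak width was 2059 and 2205 bp in the controls, compared with 1954 and 2019 bp in the mutants (-6.83%, against a median of -8.21% on the other autosomes). It was lower in both mutants than in both controls on 17 of the 19 autosomes. Counted as a share of all autosomal peaks, chromosome 10 held 5.85 and 5.72% of peaks in the controls, compared with 4.58 and 5.01% in the mutants. That relative difference of -17.1% was the lowest of the 19 autosomes, with chromosome 3 next at -11.8%. Both mutants lay below both controls in this share on 6 of the 19. On chromosome 10 the hiddenDomains score gave no separation. Bins of the highest score made up 92.3 and 93.2% of the chromosome's bins in the controls, compared with 92.1 and 92.5% in the mutants. On the other autosomes the genotypes did not overlap, at 93.1 and 93.1% in the controls, compared with 91.0 and 92.5% in the mutants.

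The lower coverage extended over most of the chromosome. It was divided into 26 windows of 5 Mb, numbered from the centromere end, where the coordinates of the mouse chromosomes start. With hiddenDomains both mutants lay below both controls in 23 of the 26 windows, against 73.2% of such windows over all autosomes. With MACS2 they did so in 19 of 26, against 34.6%. No window had both mutants above both controls with either caller, against 0.994% and 18.3% of all autosomal windows. The 19 windows lower with MACS2 were all lower with hiddenDomains, against 33.8% of windows over all autosomes that were lower with both. Since this contrast chose the chromosome, its excess over the background supports nothing further. On the share scale 18 windows were lower with hiddenDomains, against 47.3%, and 23 with MACS2, against 55.5%. The same 18 were lower with both callers, against 41.4%.

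**Figure D2:**
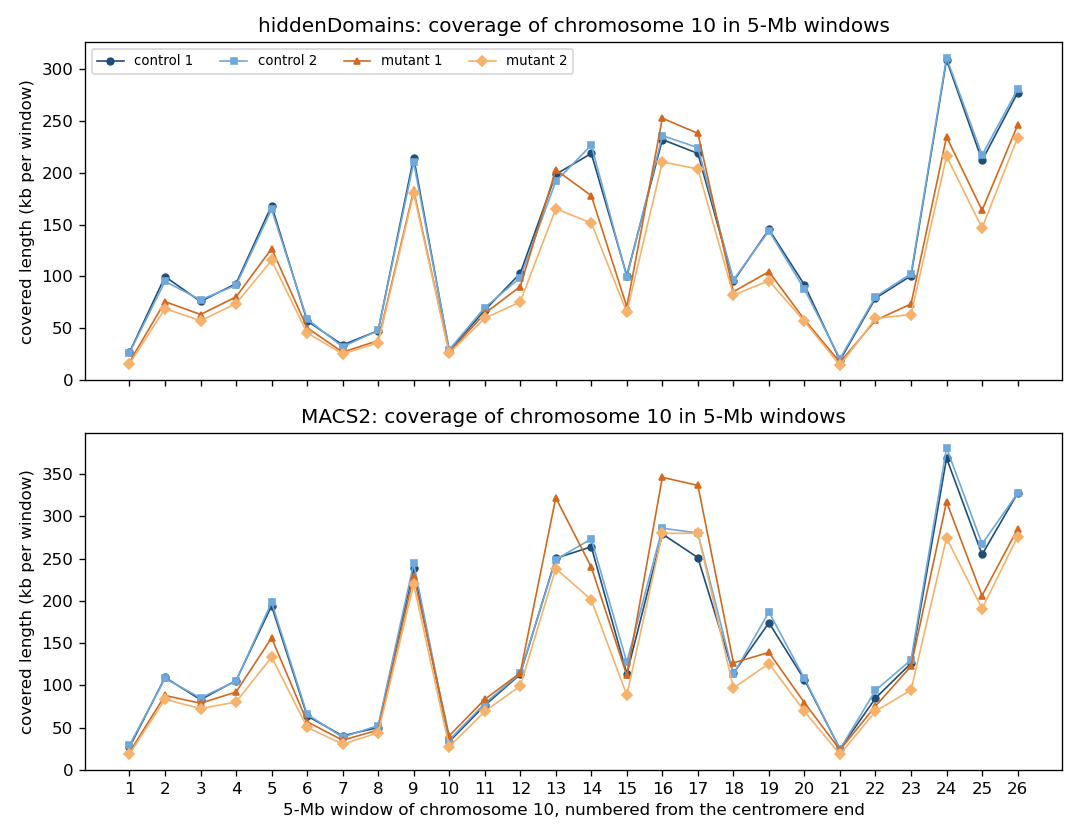
Length covered by calls (kb) in each 5-Mb window of chromosome 10 in the 4 libraries, for hiddenDomains (top) and MACS2 (bottom). The control lines nearly coincide with hiddenDomains, and less closely with MACS2, where they part most in window 17 (251 and 280 kb). Both mutant lines run below them at both ends of the chromosome. Mutant 1 lies above both controls in windows 13, 16 and 17 with both callers, and also in windows 10, 11, 12 and 18 with MACS2.

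The distal end of the chromosome held the largest difference in base pairs. From 115000001 to 120000000 (window 24), the most covered part of chromosome 10 in the controls, bins covered 309.2 and 311.2 kb in the controls, compared with 234.8 and 216.0 kb in the mutants. MACS2 peaks there covered 369 and 381 kb against 317 and 274 kb. The genotypes did not overlap with either caller, and the differences were -27.3 and -21.1%. In the next window, from 120000001 to 125000000, bins covered 212.0 and 217.2 kb against 163.8 and 146.8 kb, and peaks 255 and 267 kb against 206 and 191 kb. The last window, from 125000001 to the last call, differed less. Its bins covered 277.4 and 280.8 kb in the controls, compared with 246.0 and 234.0 kb in the mutants. In share of autosomal coverage its mutants overlapped the controls with hiddenDomains (-2.71%) but not with MACS2 (-18.7%).

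The other windows of large difference lay in the interior. From 65000001 to 70000000 bins covered 218.8 and 226.8 kb in the controls, compared with 178.0 and 151.6 kb in the mutants, and peaks 264 and 273 kb against 240 and 201 kb. From 20000001 to 25000000 bins covered 168.4 and 164.8 kb against 126.8 and 115.4 kb, and peaks 194 and 198 kb against 156 and 134 kb. From 90000001 to 95000000 bins covered 145.4 and 144.0 kb against 104.6 and 95.8 kb, and peaks 174 and 187 kb against 139 and 126 kb. Each of these windows was lower by both callers on both scales, with share differences between -16.6 and -21.8% for bins and between -22.7 and -30.6% for peaks. The spread between controls was small beside these differences. The median gap between the controls was 2.0 kb per 5-Mb window with hiddenDomains and 2.31 kb with MACS2, while the median gap between the mutants was 6.2 and 13.05 kb. Mutant 2 lay below mutant 1 in 25 of the 26 windows with hiddenDomains and in 26 with MACS2, and its autosomal total was also the smaller.

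Relative to the controls, the largest differences with hiddenDomains were in windows 1 and 20, at -37.9 and -36.0%. The first window, where no call lies before 3000001, had 26.6 and 26.2 kb of bins in the controls, compared with 17.2 and 15.6 kb in the mutants, a share difference of -29.8%. From 95000001 to 100000000 bins covered 91.8 and 87.6 kb against 58.2 and 56.6 kb, a share difference of -27.6% for bins and -34.7% for peaks. Both windows were lower with both callers. Window 20 was not sparse. Among sparse windows other than window 1, window 10 differed by -8.71% with hiddenDomains, and windows 7, 8 and 21 by -21.0, -22.6 and -21.2%. The part of low coverage in these relative differences was not tested.

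With hiddenDomains in base pairs, 3 of the 5-Mb windows were not lower in both mutants, numbers 13, 16 and 17. With MACS2 windows 10, 11, 12 and 18 were added to them, and in share with hiddenDomains windows 9, 10, 11, 18 and 26. From 75000001 to 80000000 (window 16) bins covered 232.2 and 236.0 kb in the controls, compared with 252.8 and 210.6 kb in the mutants. Peaks there covered 279 and 286 kb in the controls, compared with 346 and 280 kb in the mutants. From 80000001 to 85000000 (window 17) bins covered 218.8 and 224.4 kb against 238.2 and 203.8 kb, and peaks 251 and 280 kb against 337 and 280 kb. In base pairs mutant 1 thus lay above the controls and mutant 2 at or below most of them. As a share of each library's autosomal coverage both mutants lay above both controls in these 2 windows with both callers, a pattern found in 18.3% of windows over all autosomes. The share differences were 11.5 and 12.4% with hiddenDomains and 4.05 and 9.21% with MACS2. Window 13, from 60000001 to 65000000, is the window just outside the rule with hiddenDomains, with 198.6 and 191.8 kb of bins in the controls, compared with 203.0 and 165.4 kb in the mutants. Just inside it is window 10, from 45000001 to 50000000, with 28.2 and 29.2 kb against 26.6 and 25.8 kb. Windows 13, 16 and 17 were set apart after their values were seen. Together they held 1.22 and 1.20% of autosomal bin coverage in the controls, compared with 1.37 and 1.30% in the mutants. The other 23 held 5.0 and 4.93% in the controls, compared with 4.21 and 4.41% in the mutants, a relative difference of -13.2% with hiddenDomains and of -21.8% with MACS2.

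**Figure D3:**
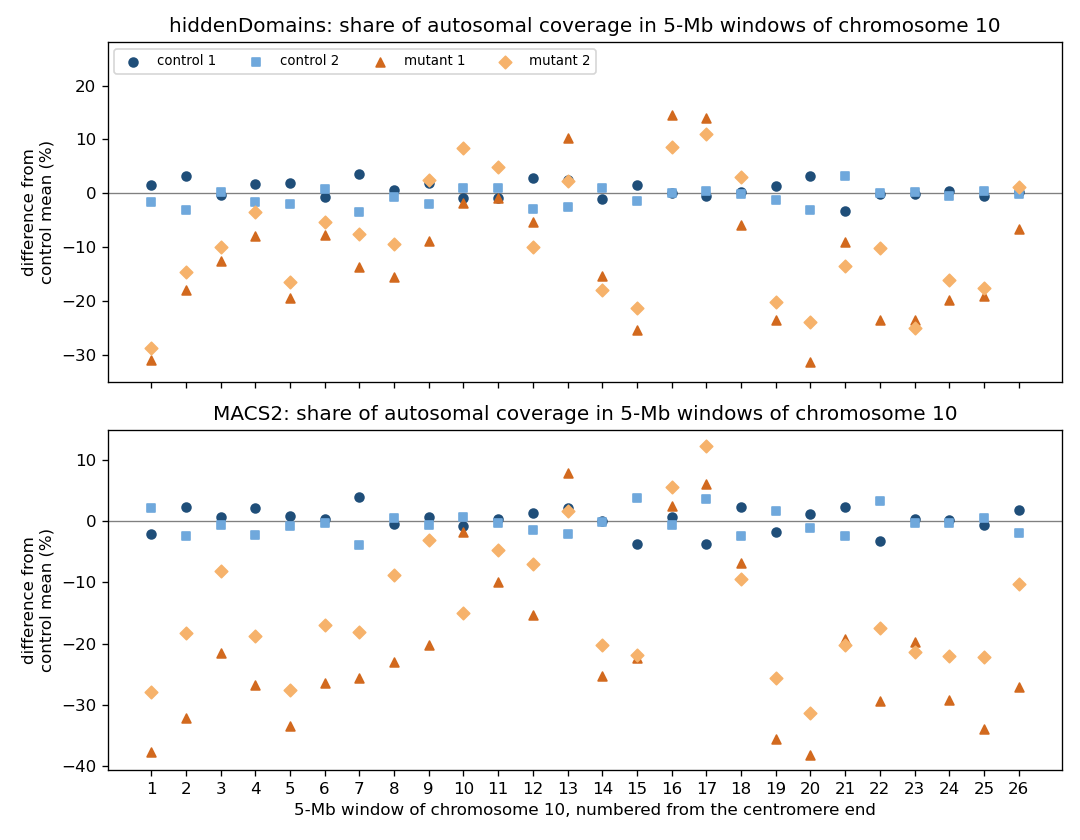
Share of autosomal coverage in each 5-Mb window of chromosome 10, as the difference in percent from the control mean, for hiddenDomains (top) and MACS2 (bottom); each symbol is 1 library. Both mutants lie above both controls in windows 16 and 17 with both callers and below both in 18 of the 26 windows with both callers.

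Windows of 1 Mb resolved these stretches further. Of the 130 windows up to the last call, 122 held a bin and 125 a peak in at least 1 library. With hiddenDomains both mutants lay below both controls in 94 windows, against 62.6% over all autosomes, and above both in 2, against 3.80%. With MACS2 the counts were 78 and 9 windows, against 36.6% and 16.8%. On the share scale 63 windows were lower and 10 higher with hiddenDomains, against 40.3% and 20.9%. With MACS2 84 were lower and 9 higher, against 47.0% and 18.8%. Both callers placed the mutants lower in 71 windows in base pairs, against 32.7%, and in 56 in share, against 31.5%. Only 1 window, from 10000001 to 11000000, was placed on opposite sides in base pairs. There bins covered 14.6 and 15.2 kb in the controls, compared with 14.0 and 11.8 kb in the mutants, while peaks covered 15.6 and 17.2 kb against 18.1 and 17.3 kb. The rule can turn on small lengths, since 5 windows were inside it with hiddenDomains by a gap of only 0.2 kb and 4 others were outside it by a tie. Not all of them were sparse. From 119000001 to 120000000, inside the rule by 0.2 kb, bins covered 63.6 and 65.0 kb in the controls, compared with 63.4 and 47.2 kb in the mutants.

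**Figure D4:**
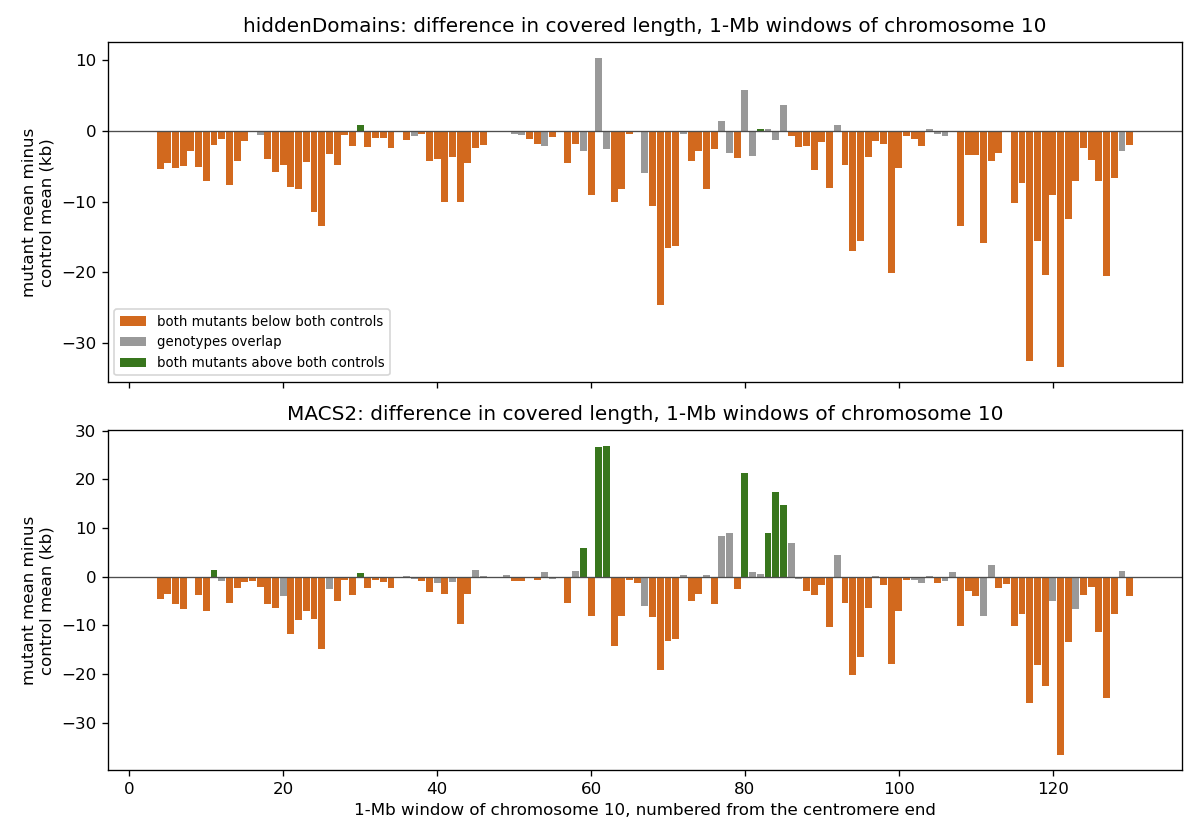
Mutant mean minus control mean of covered length (kb) in 1-Mb windows of chromosome 10, for hiddenDomains (top) and MACS2 (bottom), coloured by whether the libraries of the 2 genotypes overlap. The lowest values, -33.3 kb with bins and -36.5 kb with peaks, fall in window 121, and the highest MACS2 values in windows 61 and 62.

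The difference was spread over many windows. With hiddenDomains the mutant mean lay below the control mean in 112 windows and above it in 9, and 19 windows held 50% of the summed losses (-656.6 kb). With MACS2 it lay below in 97 and above in 28, with losses summing to -599 kb and gains to 164 kb. The median difference per window was -20.3% on chromosome 10 and -16.9% over all autosomes with hiddenDomains, and -16.8 and -5.22% with MACS2. The 8 windows of largest loss held 28.2% of the losses with hiddenDomains. The largest was the one from 120000001 to 121000000, where bins covered 116.2 and 116.0 kb in the controls, compared with 87.6 and 78.0 kb in the mutants, and peaks 141 and 143 kb against 107 and 104 kb. In the second, from 116000001 to 117000000, bins covered 78.4 and 74.6 kb against 43.6 and 44.4 kb, and peaks 91.1 and 89.0 kb against 67.4 and 60.8 kb. That is a difference of -42.5% with bins and of -28.8% with peaks. From 98000001 to 99000000 bins covered 48.6 and 44.0 kb against 25.8 and 26.6 kb, or -43.4%, and peaks 51.6 and 52.6 kb against 36.7 and 31.5 kb, or -34.6%. In these 3 windows the highest mutant value lay well below the lowest control value with both callers.

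The remaining windows of large loss were scattered, apart from an adjoining pair. From 68000001 to 69000000 bins covered 69.0 and 75.4 kb in the controls, compared with 52.8 and 42.4 kb in the mutants, and in the adjoining window they covered 53.2 and 50.8 kb against 36.4 and 34.4 kb. From 118000001 to 119000000 they covered 64.0 and 66.4 kb against 43.4 and 46.2 kb, and from 93000001 to 94000000 49.4 and 47.8 kb against 34.4 and 29.0 kb. These 4 windows were lower by both callers on both scales. The most covered window of the chromosome, from 126000001 to 127000000, held 143.0 and 143.4 kb of bins in the controls, compared with 123.6 and 121.8 kb in the mutants. On the share scale its libraries overlapped with hiddenDomains (-2.95%) but not with MACS2 (-19.1%).

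Consecutive 1-Mb windows lower by both callers in base pairs formed 13 runs of 3 or more, holding 51 windows. Runs were not counted on the other autosomes, so the runs given here and below only locate windows and have no background. The longest of the 13 runs had 5 windows each. From 114000001 to 119000000 bins covered 272.4 and 271.0 kb in the controls, compared with 187.4 and 184.0 kb in the mutants, a difference of -31.7%, and peaks 320 and 323 kb against 249 and 225 kb. From 20000001 to 25000000 the difference was -27.3% with bins and -26.2% with peaks, and from 123000001 to 128000000 it was -16.2 and -16.9%. The runs of 4 windows began at 3000001 (-31.6% with bins), 30000001 (-21.8%), 67000001 (-31.1%), 87000001 (-20.4%), 92000001 (-33.7%) and 97000001 (-40.9%). Those of 3 windows began at 12000001 (-22.3%), 26000001 (-19.7%), 62000001 (-37.6%) and 107000001 (-35.7%). The runs thus reached from the first calls of the chromosome to within 2 windows of its last. The single run of 3 or more windows that were lower with neither caller in base pairs was that from 79000001 to 85000000. Its bins covered 337.0 and 342.4 kb in the controls, compared with 368.2 and 321.4 kb in the mutants, a difference of 1.5%, and its peaks 384 and 415 kb against 502 and 425 kb, a difference of 15.97%.

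On the share scale the longest run that was lower with neither caller had 10 windows, from 76000001 to 86000000. Its bins covered 448.2 and 455.8 kb in the controls, compared with 489.4 and 412.0 kb in the mutants, a share difference of 12.4%, and the share difference of its peaks was 8.76%. Shorter runs of this kind lay from 44000001 to 47000000 and from 50000001 to 54000000, with share differences of 3.19 and 3.36% with bins and of -4.37 and -6.41% with peaks. The 5-Mb window 13 was a boundary between both patterns. From 60000001 to 61000000 bins covered 76.8 and 72.2 kb in the controls, compared with 95.6 and 74.0 kb in the mutants, and peaks 102 and 96.8 kb against 148 and 104 kb. From 62000001 to 65000000 bins covered 49.8 and 49.6 kb against 30.6 and 31.4 kb, and peaks 57.4 and 61.9 kb against 36.0 and 37.1 kb. Between them, from 61000001 to 62000000, peaks covered 90.9 and 90.2 kb against 138 and 96.8 kb. The higher values at the start of window 13 were mostly those of mutant 1, whereas the values of the mutants were alike in the later stretch.

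Both callers placed both mutants above both controls in share in 5 windows of 1 Mb, against 12.3% over all autosomes. Among them, from 79000001 to 80000000 bins covered 118.2 and 118.0 kb in the controls, compared with 130.0 and 117.6 kb in the mutants, and peaks 133 and 135 kb against 165 and 145 kb. From 84000001 to 85000000 bins covered 25.2 and 24.8 kb against 33.8 and 23.6 kb, and peaks 32.7 and 36.6 kb against 56.4 and 42.5 kb. The other 3 began at 60000001, 82000001 and 91000001, and in base pairs mutant 1 lay above mutant 2 in all 5 with both callers. In base pairs the mutants were above the controls with both callers in only 1 window, from 29000001 to 30000000, against 2.86% over all autosomes. It had 5.4 and 5.6 kb of bins in the controls, compared with 6.8 and 5.8 kb in the mutants. A further window of gain by the mean of bins, from 76000001 to 77000000, held 30.4 and 31.2 kb in the controls, compared with 38.8 and 25.6 kb in the mutants, which overlap.

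The share of lower windows was above that of all autosomes in sparse and in dense windows of chromosome 10, with the widest gap in the densest. Windows were grouped by mean coverage over the 4 libraries. Among those of 40 kb or more, 15 of 20 were lower in base pairs with hiddenDomains, against 48.9% over all autosomes, and 18 of 33 with MACS2, against 19.6%. The summed coverage of these windows differed by -16.3% on chromosome 10 and by -5.66% over all autosomes with hiddenDomains, and by -7.72 and 13.2% with MACS2. Windows of 20 to 40 kb were lower in 29 of 37 cases with hiddenDomains, against 64.0%, and in 21 of 32 with MACS2, against 37.1%. For those of 5 to 20 kb the counts were 38 of 46, against 71.4%, and 29 of 42, against 45.0%. Among windows under 5 kb, 12 of 19 were lower with hiddenDomains, against 55.5%, and 10 of 18 with MACS2, against 44.3%. Their summed coverage differed by -35.7% on chromosome 10 and by -32.1% over all autosomes with hiddenDomains, and by -38.8 and -22.5% with MACS2.

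Single regions were then followed, as the union of the 4 lists merged where calls share at least 1 bp or touch. On chromosome 10, MACS2 gave 2614 regions and hiddenDomains 2154. Regions called in all 4 libraries numbered 1153 with MACS2, or 44.1%, against 36.4% over all autosomes, and 996 with hiddenDomains, or 46.2%, against 43.5%. Control-only regions, called in both controls and neither mutant, numbered 220 with MACS2 (8.42%, against 4.92%) and 220 with hiddenDomains (10.2%, against 7.55%). Mutant-only regions numbered 98 with MACS2 (3.75%, against 5.97%) and 30 with hiddenDomains (1.39%, against 2.79%). Of all control-only and mutant-only regions, 69.2% by MACS2 and 88.0% by hiddenDomains were thus control-only. On the other 18 autosomes these shares were 43.8 and 72.0%. Without mutant 2 the mutant-only regions rested on mutant 1 alone and numbered 454 with MACS2 and 296 with hiddenDomains. Without mutant 1 they numbered 239 and 104. Leaving out control 1 or control 2 gave 362 or 389 control-only MACS2 regions and 396 or 436 with hiddenDomains. Without mutant 1 there were 347 control-only MACS2 regions. Regions called in 1 library alone made up 29.6% with MACS2, against 38.1%, and 31.4% with hiddenDomains, against 35.4%.

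**Figure D5:**
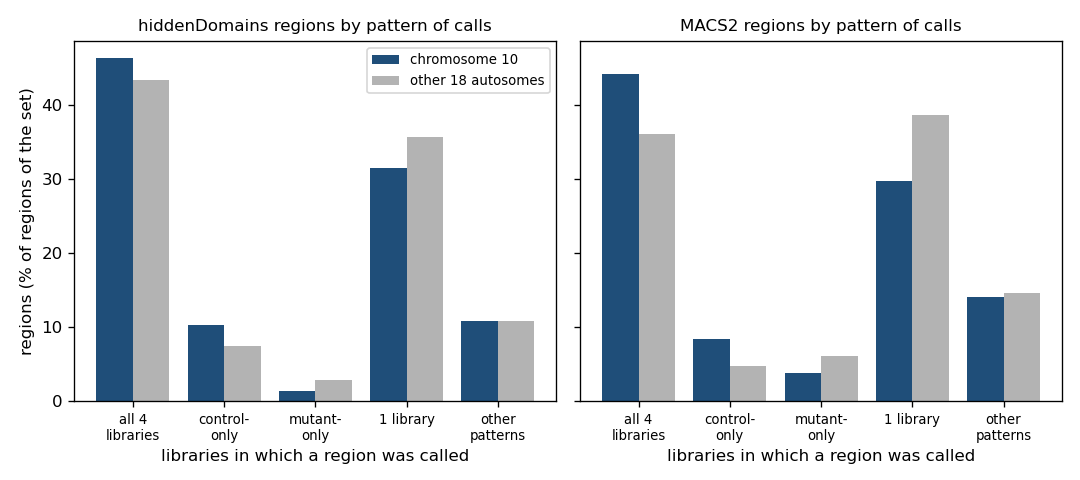
Regions of chromosome 10 and of the other 18 autosomes by the libraries in which they were called, in percent of the regions of each set, for hiddenDomains (left) and MACS2 (right); bars carry no error since each is 1 count over the 4 libraries. Control-only regions made up 10.2 and 8.42% of regions on chromosome 10 and mutant-only regions 1.39 and 3.75%.

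Regions called in every library carried most of the difference in covered length, and control-only regions the next part. Of the net -633 kb with hiddenDomains, shared regions gave -351 kb, control-only regions -203 kb, mutant-only regions 25.2 kb, regions of a single library 3.40 kb and other patterns -108 kb. Of the net -435 kb with MACS2, shared regions gave -342 kb, control-only regions -198 kb, mutant-only regions 91.5 kb, regions of a single library 73.6 kb and other patterns -60.7 kb. Relative to control coverage, shared regions gave -10.6% with hiddenDomains, against -8.03% on the other autosomes, and -8.67% with MACS2, against -1.55%. Mutant-only and single-library regions together offset less of this on chromosome 10 than elsewhere. With MACS2 they added 2.32 and 1.87% of control coverage there and 5.22 and 5.83% on the other autosomes. Within shared regions, both mutants covered less than both controls in 565 of 1153 MACS2 regions, or 49.0%, against 38.2% over all autosomes, and more in 111, or 9.63%, against 14.7%. With hiddenDomains the counts were 450 of 996, or 45.2%, against 39.4%, and 61, or 6.12%, against 6.34%.

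The stretch from 76000001 to 86000000 differed from the remainder of the chromosome region by region as well. It was found by the same contrast, so these counts describe it and support nothing. Of its 148 shared MACS2 regions, 37 were lower and 31 higher in both mutants, or 25.0 and 20.9%. Elsewhere on the chromosome 528 of 1005 were lower and 80 higher, or 52.5 and 7.96%, against 38.2 and 14.7% over all autosomes. Of its 136 shared hiddenDomains regions, 35 were lower and 18 higher, or 25.7 and 13.2%. Elsewhere on the chromosome 415 of 860 were lower and 43 higher, or 48.3 and 5.0%, against 39.4 and 6.34% over all autosomes. Of its 407 MACS2 regions, 13 were control-only and 32 mutant-only, and of the 2207 in the remainder 207 and 66. Over all autosomes these patterns made up 4.92 and 5.97% of MACS2 regions. With hiddenDomains, 11 of its 326 regions were control-only and 9 mutant-only, and of the 1828 in the remainder 209 and 21. Over all autosomes they made up 7.55 and 2.79% with this caller. The median change in covered length within the shared MACS2 regions of the stretch was -0.30%, against -14.9% elsewhere on the chromosome. With hiddenDomains it was -3.08%, against -14.9%.

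Narrow regions were kept less often than broad ones. Peaks of the controls were merged without those of the mutants, and 1574 of the resulting regions on chromosome 10 were called in both controls. Both mutants called 74.3% of them, against 78.5% over all autosomes. By width, 64 of 212 regions under 1 kb were kept (30.2%, against 33.6%), as were 954 of 1210 of 1 to 5 kb (78.8%, against 83.1%). All 148 of 5 to 20 kb and all 4 over 20 kb were kept, against 99.8 and 100% over all autosomes. With hiddenDomains 73.1% of the 1374 control regions were kept, against 76.7%. They comprised 35 of 147 under 1 kb (23.8%, against 29.0%), 853 of 1110 of 1 to 5 kb (76.8%, against 80.1%), all 115 of 5 to 20 kb (against 99.9%) and both wider ones (against 100%). The widths of the regions that were not kept were thus at most 5 kb with both callers.

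In the opposite direction, 86.6% of the 1346 mutant MACS2 regions were called in both controls, against 77.7% over all autosomes. They comprised 132 of 186 under 1 kb (71.0%, against 57.8%), 890 of 1015 of 1 to 5 kb (87.7%, against 77.9%), 140 of 142 of 5 to 20 kb (98.6%, against 97.4%) and all 3 wider ones (against 100%). With hiddenDomains both controls called 95.4% of the 1064 mutant regions, against 90.3%. They comprised 87 of 109 under 1 kb (79.8%, against 67.7%), 839 of 866 of 1 to 5 kb (96.9%, against 92.4%), all 87 of 5 to 20 kb (against 99.8%) and all of the widest class (against 100%). On chromosome 10 calls of the mutants were thus found in the controls more often than calls of the controls in the mutants, in each width class up to 5 kb. Over all autosomes the direction was the same in these classes, except for MACS2 regions of 1 to 5 kb (77.9%, against 83.1% for control regions in the mutants). The chromosome was chosen for lower mutant coverage, so this direction supports nothing further. A region counted as kept where a call touched it by at least 1 bp, which favours wide regions.

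The broadest domains of chromosome 10 were called in all libraries. The widest, from 80913448 to 80946293, carried 30.3 and 30.4 kb of peaks in the controls, compared with 32.8 and 29.8 kb in the mutants. The next, from 42284388 to 42314818, carried 24.4 and 24.4 kb against 25.2 and 24.6 kb, and that from 79942867 to 79968949 carried 21.5 and 22.0 kb against 25.9 and 20.2 kb. The fourth, from 50609433 to 50633262, carried 23.4 and 23.1 kb against 23.8 and 22.9 kb. Both mutants lay just above both controls in the second, by less than 1 kb, and the genotypes overlapped in the other 3. Bins covered at least 19 kb of each of the 4 in every library. The fifth, from 126758648 to 126781202, carried 22.5 and 22.0 kb in the controls, compared with 21.3 and 20.4 kb in the mutants, with both mutants lower. The widest and the third lie in the stretch from 76000001 to 86000000, and the fifth lies in the most covered window of the chromosome.

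The median MACS2 region was 1050 bp wide where control-only, 1219 bp where mutant-only and 2837 bp where shared. The widest control-only region, from 118544431 to 118548824, had 3.55 and 2.87 kb of peaks in the controls, and bins over 0.4 and 2.0 kb. The next pair lay within 50 kb of each other in the stretch of strong loss beginning at 62000001. The first of them, from 62962102 to 62965310, had 2.72 and 3.13 kb of peaks, and 0.6 kb of bins in control 1 only. The second, from 62917646 to 62920681, had 1.04 and 2.76 kb of peaks, and 0.281 kb of bins in control 2 only. The fourth, from 120759846 to 120762616, had 2.77 and 0.917 kb of peaks and 1.6 and 0.8 kb of bins in the controls, and lay in the 1-Mb window of largest loss. The fifth, from 77813728 to 77816309, had 2.58 and 0.748 kb and no bin in any library, and lay in the stretch from 76000001 to 86000000. None of the 5 held a bin in either mutant.

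The widest mutant-only region, from 84917351 to 84920697, had 3.17 and 2.64 kb of peaks in the mutants, and bins over 1.4 and 0.6 kb in the mutants and 0.4 kb in control 1. The second, from 111236906 to 111240170, had 3.27 and 2.0 kb, and the third, from 126673923 to 126677131, had 1.18 and 2.18 kb. Neither of these held a bin in any library. The fourth, from 85942349 to 85945528, had 2.16 and 1.79 kb of peaks and 0.2 kb of bins in mutant 1. The fifth, from 84999764 to 85002700, had 2.94 and 0.668 kb of peaks and 0.8 kb of bins in mutant 2. Of the 5, 3 thus lay between 84000001 and 86000000. Bins in both controls and neither mutant were found in 91 of the 220 control-only regions, or 41.4%, against 33.9% over all autosomes. The reverse pattern was found in 8 of the 98 mutant-only regions, or 8.16%, against 6.41%. The callers thus shared fewer mutant-only than control-only regions over all autosomes as well as on chromosome 10. No bin of any library touched 47 of the control-only regions (21.4%, against 33.8% on the other autosomes) and 44 of the mutant-only regions (44.9%, against 58.7%).

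The overlap of whole libraries was measured last. The Jaccard index, the base pairs covered in both of 2 libraries over those covered in either, was 0.734 between the controls, 0.658 between the mutants and 0.596 to 0.626 between genotypes for MACS2 peaks on chromosome 10. On the other 18 autosomes it was 0.701, 0.590 and 0.543 to 0.604. With hiddenDomains it was 0.793, 0.740 and 0.655 to 0.676 on chromosome 10, and 0.801, 0.731 and 0.660 to 0.697 on the other autosomes. With MACS2 every pair of libraries overlapped more on chromosome 10 than elsewhere. With hiddenDomains only the pair of mutants did so, and every other pair overlapped less. Each library of a genotype overlapped its replicate more than any library of the other genotype on chromosome 10 with both callers.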

How the data were processed

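H3K27me3 ChIP-seq of 2 control and 2 Ezh2 mutant libraries was analysed from the lists the authors deposited for each library; the input of each genotype is not analysed here. Per the file headers, the deposited peak lists come from MACS2 and hold positions only. The deposited bin lists are named for hiddenDomains and 200-bp bins and hold a score of 4 values, with no statement of its meaning. Per the submitters' processing notes, reads were handled with Bowtie, SAMtools and bedtools on mm9. Calling controls, thresholds and depth: not given in the sources used here.

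Groups were taken from the titles. Touching calls were merged with Python 3.11.15 and NumPy 2.4.6, and coverage was summed per chromosome, per 1-Mb and 5-Mb window and per region on chromosomes 1 to 19. A window counted where at least 1 library covered it. A deeper or cleaner library can yield more and wider calls, so base pairs are not normalised for depth; shares of autosomal coverage remove only a difference in total. The interval arithmetic was tested on simulated data. Windows named were those of largest loss or gain by hiddenDomains, and regions named the 5 widest of each pattern by MACS2. The members, windows and rules were chosen with earlier results of these data known. Alternatives changed the score or peak width minimum, filled gaps, window grid, coverage minimum, denominator, merging distance, overlap, and the libraries used.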

Additional observations from a re-analysis of the deposited data

How the results depend on the processing

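Of 38 alternative values that used all 4 libraries, 35 kept the direction and stayed within the spread between replicates (differences) or within 1.5 times the count. Counting calls in place of base pairs gave a share difference of -11.7% with hiddenDomains. When both libraries of the genotype had to cover at least 50% of a region, mutant-only regions numbered 16 with hiddenDomains and 54 with MACS2. The number of MACS2 peaks changed direction without mutant 2, to 4.51%. With 1 library left out, fewer conditions apply, so counts of windows and regions rise by construction. With 2 libraries a genotype, a difference then shifts by no more than their spread, so these ranges show its width and not stability.

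With 1 library left out, the difference in covered length ranged from -23.3 to -14.8% (hiddenDomains) and from -17.9 to -4.16% (MACS2), and that in share from -9.75 to -7.50% and from -19.8 to -12.6%. The number of calls ranged from -23.3 to -7.79% and from -13.4 to 4.51%, and their mean width from -7.66 to -0.038% and from -9.92 to -3.52%. Lower 1-Mb windows ranged from 97 to 111 and from 80 to 103 in base pairs, and from 70 to 85 and from 89 to 101 in share. Lower 5-Mb windows ranged from 23 to 26 and from 19 to 24 in base pairs, and from 18 to 22 and 23 to 23 in share. Control-only regions ranged from 279 to 436 and from 277 to 389, and mutant-only regions from 36 to 296 and from 138 to 454. No paired analysis was possible because the results come from no test. The depth behind the lists is unknown, so a missing call cannot be told apart from a weak one.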
